A study of Mus musculus with 2 samples.

Results

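The miR-17-92 polycistron and its paralog on the X chromosome, miR-106a-363, are described here in the hearts of female B6CASTF1/J mice, 2 months of age. Members were taken by gene symbol in the GENCODE M21 annotation: Mir17, Mir18, Mir19a, Mir20a, Mir19b-1 and Mir92-1 of the first cluster, and Mir106a, Mir20b, Mir92-2 and Mir363 of the second. All 10 had a row among the 2202 microRNA genes counted in each library. The mice are F1 hybrids of the C57BL/6J and CAST/EiJ strains, with no treatment or engineered allele given, and the labels form 1 group of 2 biological replicates. Their descriptions give them different animal numbers in a biobank, while the donor label is the same for both. A difference between them compares 2 libraries, may be technical, and is not an effect of a condition.

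Counts on the gene's own strand totalled 2424441 in replicate 1 and 2770301 in replicate 2, 30.0% and 34.7% of reads. Levels are given as CPM, counts per 1000000 of that total. Detection required 10 or more counts in each library (4.12 and 3.61 CPM), which 306 genes reached. The heart label was checked against 7 cardiac muscle microRNAs. None of the 7 was at 0 in both libraries and 4 were detected. The Myh6-hosted Mir208a, highest by mean, stood at 1542 and 5865 CPM, and Mir499, hosted by Myh7b, at 4354 and 2641. Mir208b stood at 84.1 and 39.3 CPM and Mir1a-2 at 58.2 and 24.2. Mir1a-1 (6 and 5 counts), Mir133a-1 (11 and 5) and Mir133a-2 (5 and 9) missed detection, so the check rests on part of the list. Whether reads of the Mir1a and Mir133a genes are among those mapped to several places, which are counted for no gene, was not tested. The levels of these genes are therefore uncertain. Intervals are 95% exact (Clopper-Pearson) and, like the limit for a count of 0, set at 3 counts, cover counting error only.

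A polycistron is a single primary transcript from which several hairpins are cut by the nuclear enzyme Drosha. Dicer then makes each hairpin into a mature microRNA, which finds target mRNAs mainly through its seed, here bases 2 to 8. The cluster of Mir17 is activated by the growth regulators MYC and E2F. Its products repress inhibitors of growth and survival such as Bcl2l11 and Cdkn1a, and in the heart it is known for promoting cardiomyocyte proliferation. The X-linked cluster and the trio Mir106b, Mir93 and Mir25 in the replication gene Mcm7 arose by duplication of the same ancestral unit.

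The mature sequences are shown because they sort the members into families and because several are repeated between loci. They come from RefSeq (GRCm38.p6, the assembly also named mm10), which held all 10 members at the GENCODE positions. The arm usually regarded as the main product is printed, 5′ to 3′, with the seed in capitals. The counts are per hairpin and do not separate the arms.
miR-17-5p (Mir17): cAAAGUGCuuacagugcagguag
miR-20a-5p (Mir20a): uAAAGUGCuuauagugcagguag
miR-106a-5p (Mir106a): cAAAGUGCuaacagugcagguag
miR-20b-5p (Mir20b): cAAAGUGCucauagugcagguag
miR-18a-5p (Mir18): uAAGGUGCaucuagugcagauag
miR-19a-3p (Mir19a): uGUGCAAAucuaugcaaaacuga
miR-19b-3p (Mir19b-1): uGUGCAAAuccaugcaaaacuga
miR-92a-3p (Mir92-1 and Mir92-2): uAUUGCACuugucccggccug
miR-363-3p (Mir363): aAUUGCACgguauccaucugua

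The 10 members thus fell into 4 seed groups. Mir17, Mir20a, Mir106a and Mir20b share AAAGUGC, and Mir18 alone carries AAGGUGC. Mir19a and Mir19b-1 share GUGCAAA, and Mir92-1, Mir92-2 and Mir363 share AUUGCAC. Within groups some products are nearly the same molecule. Counted from the 5′ end, miR-17-5p differs from miR-106a-5p by U10A, and miR-19a-3p from miR-19b-3p by U11C. From miR-17-5p to miR-20a-5p the changes are C1U and C12U.

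2 mature products have no locus of their own. The sequence of miR-92a-3p occurs exactly in the hairpins of Mir92-1 and Mir92-2, and that of miR-19b-3p in those of Mir19b-1 and Mir19b-2. The hairpins are printed with the longest stretch common to each pair in capitals.
Mir92-1: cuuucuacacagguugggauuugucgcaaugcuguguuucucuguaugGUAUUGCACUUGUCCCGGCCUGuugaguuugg
Mir92-2: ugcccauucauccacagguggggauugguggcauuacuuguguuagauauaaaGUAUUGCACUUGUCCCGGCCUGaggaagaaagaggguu
Mir19b-1: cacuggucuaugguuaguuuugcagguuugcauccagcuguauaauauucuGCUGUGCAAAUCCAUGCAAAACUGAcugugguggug
Mir19b-2: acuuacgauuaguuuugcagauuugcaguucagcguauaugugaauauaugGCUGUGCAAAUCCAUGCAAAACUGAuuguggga

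The Mir92 hairpins share 22 bases, 1 before the mature sequence and none after it. The Mir19b hairpins share 25 bases, 2 before the mature sequence and none after it. A full-length mature read that ends at or before the annotated 3′ end therefore matches both loci. Reads mapped to several places stand on a line of the tables that names no gene, 49.5% of reads in replicate 1 and 42.7% in replicate 2. How many of them belong to members was not tested, so the levels of Mir92-1, Mir92-2 and Mir19b-1 are uncertain. No other member shares 20 bases with a hairpin elsewhere, and their longest common stretches ran from 13 bases (Mir17, Mir19a and Mir106a) to 17 (Mir18 and Mir20a).

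In mm10 the polycistron lies on the plus strand of chromosome 14, with its 6 hairpins within 836 bases. Mir17 spans 115043671 to 115043754, Mir18 115043851 to 115043946, Mir19a 115044000 to 115044081, Mir20a 115044157 to 115044263, Mir19b-1 115044305 to 115044391 and Mir92-1 115044427 to 115044506. All 6 overlap an exon of the long noncoding host gene Mir17hg (115042879 to 115046727). The X-linked cluster lies on the minus strand within 875 bases. In transcript order Mir106a spans 52742503 to 52742567, Mir20b 52742113 to 52742192, Mir92-2 52741838 to 52741928 and Mir363 52741693 to 52741767. Mir106a overlaps the last 5 bases of the noncoding gene Kis2, and the other 3 lie outside annotated genes other than microRNA genes.

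The polycistron was counted in both hearts, mainly as Mir92-1, Mir17 and Mir20a, and the X-linked cluster almost wholly as Mir92-2. The 6 genes of miR-17-92 held 22670 counts in replicate 1, or 0.935% of the library (0.923 to 0.947), and 29184 in replicate 2, or 1.05% (1.04 to 1.07). The mean was 0.994% ± 0.0837 (SD, n = 2). The 4 genes of miR-106a-363 held 892 counts, or 0.0368% (0.0344 to 0.0393), and 1643 counts, or 0.0593% (0.0565 to 0.0622). Counts from the polycistron thus exceeded those of its X-linked paralog 25.4-fold in replicate 1 (23.8 to 27.2) and 17.8-fold in replicate 2 (16.9 to 18.7). Both sums include a Mir92 gene whose level is uncertain for the shared mature sequence, so these folds are uncertain beyond their intervals. In bulk tissue, fewer cells of a type that makes these microRNAs and less RNA per cell cannot be told apart.

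**Figure D1:**
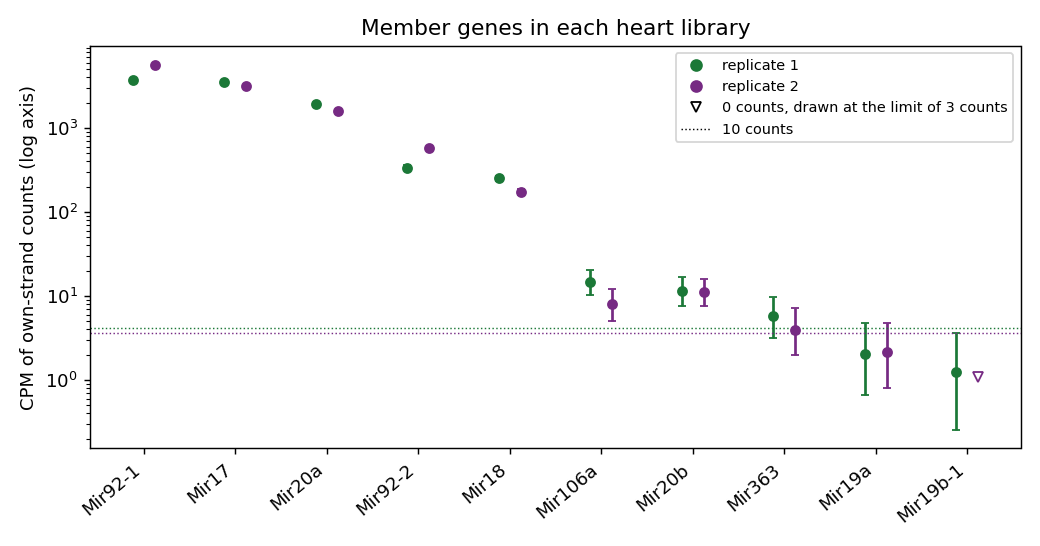
CPM of own-strand counts (log axis) for the 10 members, ordered by mean level, with 1 point per heart library and 95% exact intervals for counting error; dotted lines mark 10 counts and an open triangle a count of 0. 5 members stand above 170 CPM in both libraries, and Mir19a and Mir19b-1 lie below the lines.

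Within the miR-17 seed group, Mir17, the founding gene of the family, stood at 3514 and 3133 CPM in replicates 1 and 2 (8519 and 8680 counts; mean 3324 ± 269). It ranked 40 of all genes by mean CPM. Mir20a, which regulates the same set of seed matches, stood at 1917 and 1589 CPM (4648 and 4403 counts; mean 1753 ± 232, rank 54). Both were abundant in each library, and Mir17 exceeded Mir20a by a like factor, 1.83-fold in replicate 1 (1.77 to 1.90) and 1.97-fold in replicate 2 (1.90 to 2.04). Their X-linked counterparts were scarce. Mir106a had 36 and 22 counts (14.8 and 7.94 CPM, mean 11.4 ± 4.88) and Mir20b 28 and 31 counts (11.5 and 11.2 CPM, mean 11.4 ± 0.254). Mir17 counts exceeded those of Mir106a, its single-base neighbour, 237-fold in replicate 1 (171 to 338) and 395-fold in replicate 2 (260 to 630).

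Mir18, a hairpin whose cutting is helped by the RNA-binding protein hnRNP A1, had the lowest level of the 4 detected genes of the polycistron. It stood at 250.0 and 173 CPM (606 and 479 counts; mean 211 ± 54.5, rank 110). Its neighbour Mir17 exceeded it 14.1-fold in replicate 1 (12.9 to 15.3) and 18.1-fold in replicate 2 (16.5 to 19.9). Its X-linked counterpart Mir18b, which carries the same seed, had 0 and 1 counts.

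The miR-19 genes, known as the part of the cluster that drives lymphoma growth, were nearly absent from the counts. Mir19a had 5 and 6 counts (2.06 and 2.17 CPM) and Mir19b-1 had 3 and 0. A count of 0 in replicate 2 allows up to 1.08 CPM. Mir19b-2 on the X chromosome had 0 counts in both libraries. Mir19a and Mir19b-1 were the 2 members that missed detection, although detected hairpins lie on either side of each in the transcript. Mir19a had 0.0221% of the polycistron's counts in replicate 1 (0.00716 to 0.0515) and 0.0206% in replicate 2 (0.00755 to 0.0447). The duplicate copy of miR-19b-3p does not apply to miR-19a-3p, which occurs exactly at 1 hairpin and with 1 mismatch at 2 others. Whether reads of the miR-19 genes are among those mapped to several places was not tested.

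**Figure D2:**
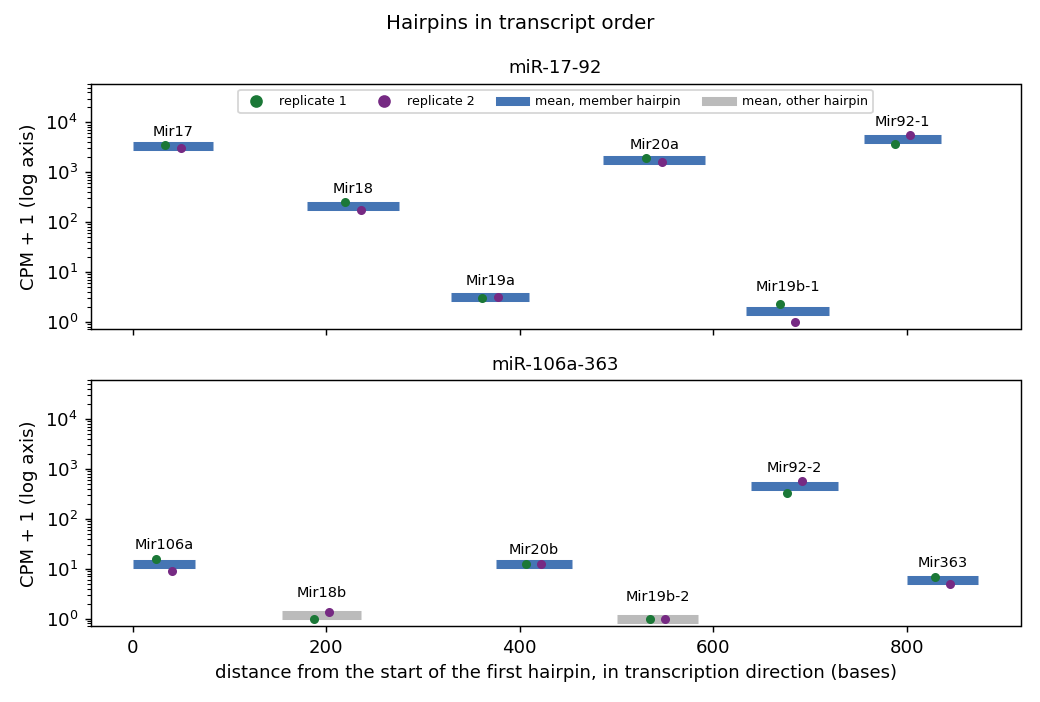
Hairpins of each cluster in transcript order, by distance from the start of the first hairpin (bases), against CPM + 1 on a log axis; bars mark each hairpin's extent at its mean level and points the libraries. Mir19a and Mir19b-1 lie low between the higher Mir18, Mir20a and Mir92-1, and Mir92-2 stands above the other hairpins of miR-106a-363.

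In the miR-92 seed group, Mir92-1, known in vessels as an inhibitor of angiogenesis, had the highest level of all members. It stood at 3666 CPM in replicate 1 and 5637 in replicate 2 (8889 and 15616 counts; mean 4652 ± 1393, rank 32). Mir92-2 stood at 336 and 570.0 CPM (814 and 1579 counts; mean 453 ± 166, rank 88), so both Mir92 genes were higher in replicate 2. It made up 91.3% of the counts of its cluster in replicate 1 (89.2 to 93.0) and 96.1% in replicate 2 (95.1 to 97.0). Mir363 at the end of that cluster had 14 and 11 counts (5.77 and 3.97 CPM, mean 4.87 ± 1.28). Counts given to Mir92-1 exceeded those given to Mir92-2 10.9-fold (10.2 to 11.7) and 9.89-fold (9.39 to 10.4), both uncertain for the shared mature sequence.

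By mean CPM the members ranked Mir92-1, Mir17, Mir20a, Mir92-2, Mir18, Mir106a, Mir20b, Mir363, Mir19a and Mir19b-1. Divided by hairpin length the order was the same, from 58.1 CPM per hairpin base for Mir92-1, 39.6 for Mir17 and 16.4 for Mir20a down to 0.00711 for Mir19b-1. Each of the 9 neighbouring pairs was compared in each library by a two-sided exact binomial test with Benjamini-Hochberg adjustment over the 18 tests. The 5 pairs from Mir92-1 down to Mir106a differed beyond counting error in both libraries, the closest being Mir92-1 and Mir17 in replicate 1 (exact adjusted p = 0.0084). Mir106a and Mir20b were not told apart in either library (exact adjusted p = 0.40 and 0.33), nor were Mir363 and Mir19a (0.082 and 0.37). Mir20b and Mir363, and Mir19a and Mir19b-1, passed in replicate 2 alone (exact adjusted p = 0.0052 and 0.047 there, 0.060 and 0.73 in replicate 1). These tests cover counting error only. The levels of Mir92-1, Mir92-2 and Mir19b-1 are uncertain for their shared mature sequences, and so are their places in this order.

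The make-up of the polycistron's counts differed between the libraries through Mir92-1. Mir92-1 held 39.2% of the cluster's counts in replicate 1 (38.6 to 39.8) and 53.5% in replicate 2 (52.9 to 54.1). Mir17 held 37.6% and 29.7%, Mir20a 20.5% and 15.1%, and Mir18 2.67% and 1.64%. The ratio of Mir92-1 to the 5 other genes of its transcript was 0.645 in replicate 1 (0.628 to 0.662) and 1.15 in replicate 2 (1.12 to 1.18), a 1.78-fold difference (1.72 to 1.85). Fisher's exact test on the reads, two-sided and adjusted over 13 ratios, gave p = 1.4e-229. That test covers counting error only. Being taken within a library, the ratio does not depend on how libraries are scaled. It does depend on the level of Mir92-1, which is uncertain for the mature sequence shared with Mir92-2. The part of reads mapped to several places in this difference was not tested. In comparison, the ratio of Mir17 to Mir20a differed 1.08-fold (1.02 to 1.13; Fisher's exact adjusted p = 0.0074) and that of Mir17 to Mir18 1.29-fold (1.14 to 1.46; 9.9e-05).

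**Figure D3:**
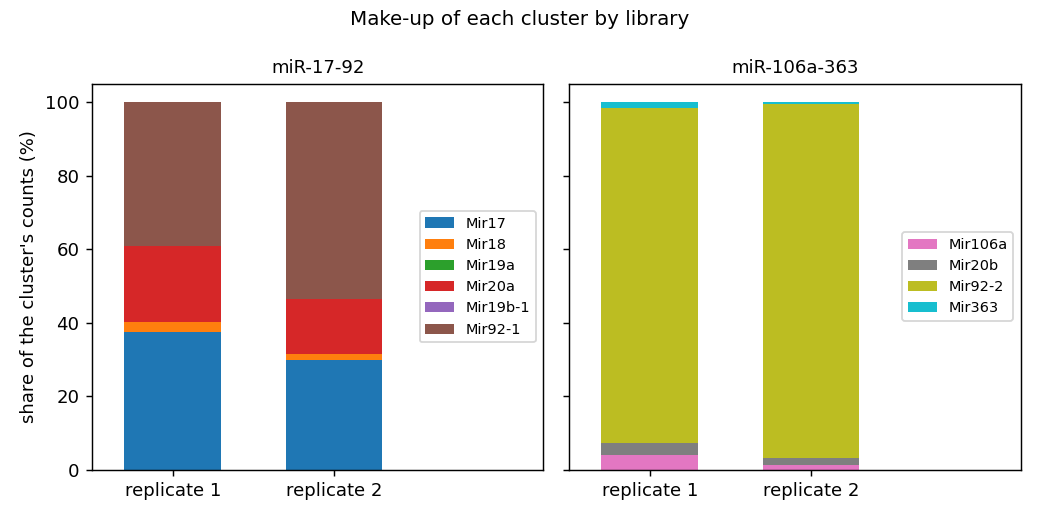
Share of each cluster's counts (%) held by each member in replicates 1 and 2, stacked to 100. Mir92-1 widens from 39.2% to 53.5% of miR-17-92 and Mir92-2 from 91.3% to 96.1% of miR-106a-363, while Mir19a and Mir19b-1 are too thin to see.

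The X-linked cluster showed a difference of the same direction. The ratio of Mir92-2 to the other 3 genes of its cluster was 10.4 (8.26 to 13.3) in replicate 1 and 24.7 (19.2 to 32.2) in replicate 2, 2.36-fold apart (1.68 to 3.33; Fisher's exact adjusted p = 1.7e-06). The ratio of Mir92-1 to Mir92-2 differed less, 1.10-fold lower in replicate 2 (1.01 to 1.21; Fisher's exact adjusted p = 0.038). Since both hairpins encode the same mature sequence, they are not independent measurements of it.

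Gene by gene, each count was tested against the split that the library totals predict (exact binomial, two-sided), and p was adjusted by Benjamini-Hochberg over the 306 detected genes. A gene was called where the adjusted p was below 0.05 and the fold at least 1.5. Of the 8 detected members 3 were called, 2 higher and 1 lower in replicate 2, against 36.6% of all detected genes called, 11.1% higher and 25.5% lower. The members' share was close to that background. Their median log2 ratio was -0.22, beside -0.19 for all genes. The adjusted test alone, with no fold minimum, was passed by 6 of 8 members and by 61.1% of all genes.

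Mir92-1 was 1.54-fold higher in replicate 2 (1.498 to 1.58; exact binomial adjusted p = 2.6e-236). Mir92-2 was 1.70-fold higher (1.56 to 1.85; exact binomial adjusted p = 2.2e-35). These sizes lie within the usual spread between the libraries: 121 of the 306 genes (39.5%) had a log2 ratio at least as far from 0 as that of Mir92-1, and 93 (30.4%) as that of Mir92-2. Mir106a was 1.87-fold lower (1.07 to 3.34; exact binomial adjusted p = 0.040), a call that rests on 36 and 22 counts. It was lost with TMM factors (1.61-fold; exact binomial adjusted p = 0.13), DESeq2 size factors (1.64-fold; 0.10) and with either-strand totals (1.69-fold; 0.10).

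Mir17 was 1.12-fold, Mir20a 1.21-fold and Mir18 1.45-fold lower in replicate 2. All 3 passed the exact binomial test, with adjusted p = 2.0e-13, 2.1e-18 and 4.6e-09, but missed the fold minimum. The scaling bears on these small folds. The median gene's log2 ratio moved from -0.19 with library totals to 0.03 with TMM factors and, by construction, to 0 with DESeq2 factors. All calls then split 52 higher to 46 lower, or 48 to 49, in place of 34 to 78. With TMM factors the log2 ratio of Mir17 turned from -0.17 to 0.05 and that of Mir20b from -0.05 to 0.17, so the direction of these genes depends on the scaling. Mir92-1 and Mir92-2 remained called under both, at 1.79-fold and 1.98-fold with TMM and 1.75-fold and 1.94-fold with DESeq2. Mir20b and Mir363 did not pass with library totals (exact binomial adjusted p = 1.0 and 0.51).

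**Figure D4:**
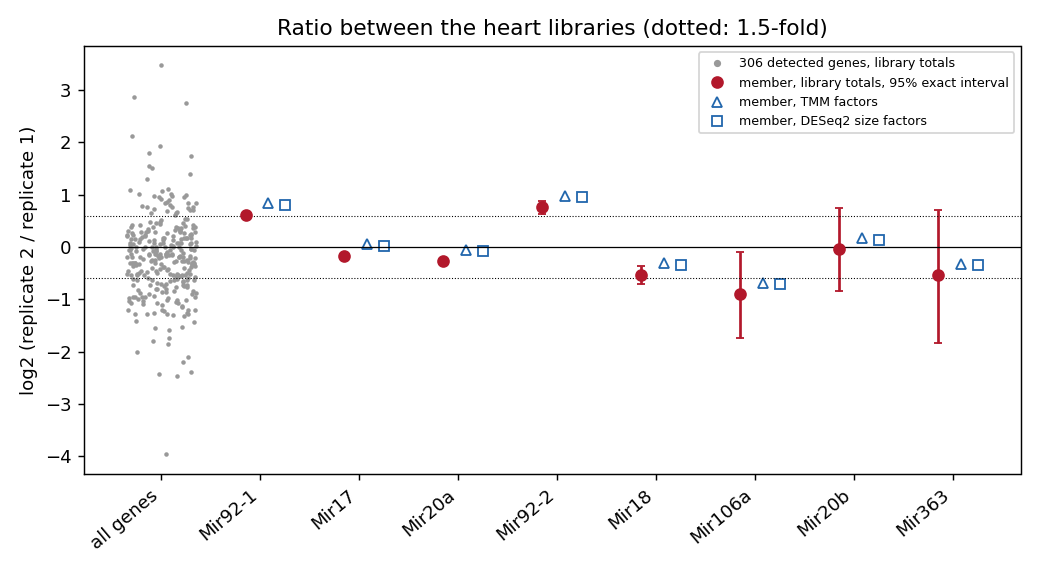
Log2 ratio of replicate 2 over replicate 1 for all 306 detected genes (grey) and the 8 detected members (red, library totals, with 95% exact intervals; blue, TMM and DESeq2 scaling); dotted lines mark 1.5-fold. Mir92-1 and Mir92-2 lie above the upper line under each scaling shown, and the other members at or below 0 with library totals.

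Markers of other cell types also differed between the libraries. The 4 erythroid genes (Mir451a, Mir144, Mir486 and Mir3107) made up 1.16% of the counts in the first library and 9.57% in the second. All 4 were detected, 2 were called higher and none lower, and their leading gene Mir451a stood at 7816 and 86827 CPM. Mir144 stood at 1963 and 6858 CPM, while Mir486 (1710 and 1919) and Mir3107 (70.9 and 65.0) were not called. Taking the erythroid list out of the library totals, a choice made after seeing the data, Mir92-1 was 1.68-fold and Mir92-2 1.86-fold higher. The part of red cells in the Mir92 difference was not tested. The fibroblast list held 1.13% and 0.259% (4 of 6 genes detected, 3 called lower), and the leukocyte list 0.549% and 0.424% (all 4 genes with a row detected, 2 lower). Their leading genes were Mir21a (10018 and 1810 CPM, called lower) and Mir155 (2088 and 2027 CPM, not called). The endothelium list held 7.70% and 8.82% (3 of 4 detected, 1 lower), and the smooth muscle and pericyte list 5.07% and 4.45% (both detected, 1 lower). They were led by Mir126a (73653 and 85269 CPM) and Mir143 (48716 and 43522 CPM), neither of which was called. Mir21a, Mir126a and Mir143 held most of the counts of their lists, so those shares mainly follow single genes. The cardiac muscle list held 0.605% and 0.858% (4 of 7 detected, 1 higher and 3 lower). The gene called higher was Mir208a (1542 and 5865 CPM), and the levels of the Mir1a and Mir133a genes are uncertain. Of all detected genes 11.1% were called higher and 25.5% lower. No gene of these lists was at 0 in both libraries, and their part in the members' differences was not tested.

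The related trio of Mcm7 was counted more than the polycistron. Mir93 stood at 10520 and 9553 CPM, Mir106b at 4192 and 2685, and Mir25 at 1373 and 1099. Their sum exceeded that of miR-17-92 1.72-fold in replicate 1 (1.69 to 1.75) and 1.27-fold in replicate 2 (1.25 to 1.29), and the change of that ratio was beyond counting error (Fisher's exact adjusted p = 6.6e-158). Between the libraries Mir106b was called lower (1.56-fold; exact binomial adjusted p = 2.5e-189). That call was lost with TMM factors (1.34-fold lower) and DESeq2 factors (1.37-fold), which stayed under the fold minimum. Mir93 (1.10-fold lower) and Mir25 (1.25-fold lower) passed the test and missed the fold minimum. The log2 ratio of Mir93 turned from -0.14 with library totals to 0.08 with TMM factors and 0.05 with DESeq2 factors, so its direction depends on the scaling. The ratio of Mir93 to Mir17 was 2.99 (2.92 to 3.07) and 3.05 (2.98 to 3.12), with no difference shown between libraries (ratio of ratios 1.02, 0.984 to 1.05; Fisher's exact adjusted p = 0.33). The ratio of Mir92-1 to its seed relative Mir25 was 2.67 (2.57 to 2.78) and 5.13 (4.93 to 5.33), a 1.92-fold difference (1.82 to 2.03; Fisher's exact adjusted p = 1.6e-116).

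Summed by seed, members held the smaller part of the AAAGUGC counts and the larger part of the counts of the other 3 seeds. Of all counts from genes with a mature product bearing AAAGUGC, members held 27.1% in replicate 1 (26.7 to 27.5) and 27.9% in replicate 2 (27.5 to 28.3), and Mir93 and Mir106b held the rest, with Mir6383 at 0. Of all counts from genes bearing AUUGCAC, members held 73.4% in replicate 1 (72.6 to 74.1) and 84.0% in replicate 2 (83.5 to 84.5). The others there were Mir25, Mir92b (48.3 and 43.0 CPM), Mir32 (34.6 and 42.2 CPM) and Mir367 (0 counts). Members held all 606 counts of AAGGUGC in replicate 1 and 479 of 480 in replicate 2, and all 8 and 6 counts of GUGCAAA. Mir92b, Mir32, Mir367 and Mir6383 fall outside the rule for named genes and are given because they share a seed. AAAGUGC and AUUGCAC are each the seed of 7 of the 1738 mature entries in the RefSeq table (0.403%). A product repeated between loci, such as miR-92a-3p, has an entry for each locus. Members of the AAAGUGC group totalled 5457 and 4742 CPM and those of the AUUGCAC group 4008 and 6211 CPM. By these counts the former was larger in replicate 1 and the latter in replicate 2. These sums rest on hairpin counts, which do not separate the arms and leave out reads mapped to several places. Full-length reads of miR-92a-3p match both Mir92 hairpins. The AUUGCAC sums and shares, and which group is larger, are therefore uncertain.

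**Figure D5:**
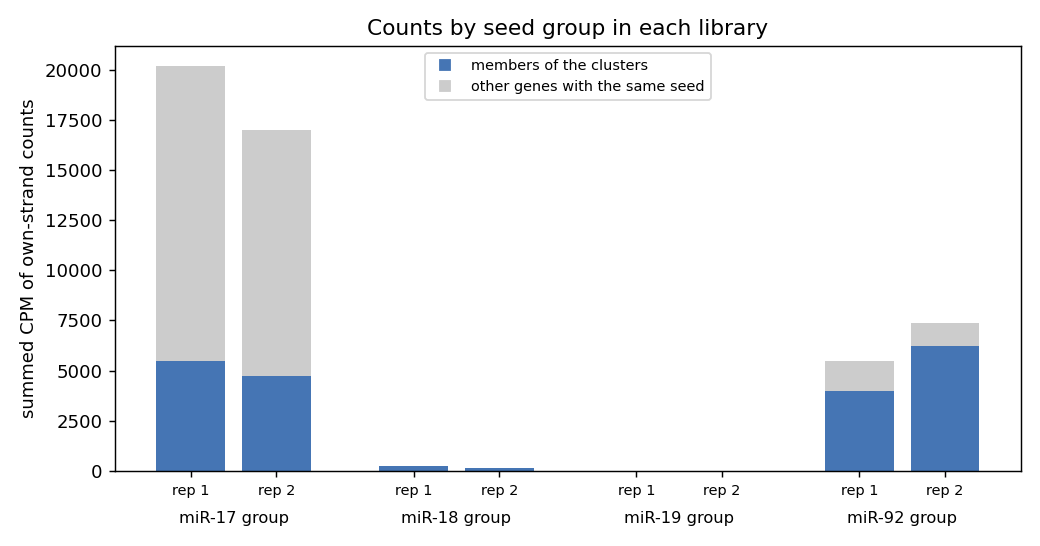
Summed CPM of own-strand counts by seed group in each library, for members of the clusters (blue) and other genes with the same seed (grey); the miR-17 group bears AAAGUGC, the miR-18 group AAGGUGC, the miR-19 group GUGCAAA and the miR-92 group AUUGCAC. Grey exceeds blue in the miR-17 group and blue exceeds grey in the miR-92 group in both libraries.

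For each detected member the 2 genes closest in level over both libraries were found, by Euclidean distance of log2(CPM + 1) over 2 values. The search took in detected genes outside the members, Mir18b, Mir19b-2 and the Mcm7 trio. It could therefore not return a relative such as Mir106b (4192 and 2685 CPM). Mir92-1 was closest to Mir100 (distance 0.14, 3350 and 5493 CPM) and Mir320 (0.40). Mir17 was closest to the endothelium list's Mir221 (0.20, 3206 and 2812 CPM) and to Mir499 (0.40), and Mir20a to Mir744 (0.21) and the lymphocyte-enriched Mir150 (0.25). Mir92-2 was closest to Mir411 (0.32) and the hypoxia-induced Mir210 (0.49), and Mir18 to Mir186 (0.089) and Mirlet7f-1 (0.11). The scarce members lay next to other scarce genes, Mir106a to Mir376a and Mir383, Mir20b to Mir667 and Mir429, and Mir363 to Mir3097 and Mir701. With 2 libraries, such closeness is a likeness of level and ratio only.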

How the data were processed

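Small RNA reads from 2 heart libraries had been counted per microRNA gene. Per the labels, reads were placed on mm10. An accompanying deposited listing gives M21 as the GENCODE release. Aligner, counter and trimming were not given in the sources used here. Each table holds the authors' raw counts in 3 columns without a header (either strand, own strand, opposite strand, identified from the values). The first 4 lines name no gene. They held 70.0% and 65.3% of own-strand reads and were left out of totals and tests. All 2202 identifiers matched M21.

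The members, lists and tests were chosen with earlier results of these data known. Named genes are the 10 members, Mir18b, Mir19b-2, Mir106b, Mir93 and Mir25, and the most abundant gene of each marker list. Also named are the 2 genes nearest in level to each detected member, outside the members and those relatives. Other genes named identify the erythroid list, a shared seed, the check of cardiac muscle or a symbol missing from a list, and were chosen after their values were seen. Mir142a and Mir146a of the leukocyte list had no row under those symbols, so its shares rest on 4 of 6 listed symbols. A row named Mir146 (1576 and 952 CPM, called lower in replicate 2) was not on the list and is left out of them. CPM uses own-strand totals. SDs are over 2 libraries. One group gives no contrast for a count model, so libraries were compared by exact binomial and Fisher's exact tests, which treat reads as independent. The tables carry no molecular identifiers. A gene-wise chi-square of 1138 per degree of freedom showed the tables were not copies. The binomial test was tried on simulated counts with set folds and counting error alone. Those counts lack the further spread between these libraries, so the trial cannot show how the test performs under it. Alternatives were either-strand counts, other count minimums, TMM (edgeR 4.0.16) and DESeq2 1.42.0 factors, all reads as denominator, counts per hairpin base, each library alone and, added after seeing the data, totals without the erythroid list and the other scalings for the Mcm7 trio. Python 3.11.15, scipy 1.17.1 and R 4.3.3 were used.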

Additional observations from a re-analysis of the deposited data

Results flagged for a closer look

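Reads mapped to several places, which the tables give to no gene, numbered 3992614 in replicate 1 and 3410568 in replicate 2. They lie outside the counts used for Mir17 and its relatives. Of the members' main mature products, miR-92a-3p and miR-19b-3p occur exactly at 2 hairpins each, and the other 7 at 1.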

How the results depend on the processing

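The number of members called between the libraries was 3 with library totals. It was 2, both higher in replicate 2, with either-strand counts, no count minimum, a minimum of 30 counts, TMM factors, DESeq2 factors and totals without the erythroid list. The call lost was that of Mir106a, and with the minimum of 30 counts it was not tested. Over all genes the calls ran from 88 to 114, beside 112. With either-strand totals the share of miR-17-92 was 1.34% and that of miR-106a-363 0.0652%, over a smaller total and unchanged member counts. With all reads as denominator they were 0.323% and 0.0158%. A minimum of 30 counts left 5 members detected. With each library alone the share of miR-17-92 ran from 0.935% to 1.05%, that of miR-106a-363 from 0.0368% to 0.0593%, and that of Mir92-1 in its cluster from 39.2% to 53.5%. The neighbouring pairs told apart then numbered 5 to 7, and 8 members had at least 10 counts in either. No paired analysis was possible because the labels give 1 group. Depth limits Mir106a, Mir20b, Mir363, Mir19a and Mir19b-1, with at most 36 counts in a library.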

Other observations

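Unequal counts within a hairpin cluster were common in these libraries. Clusters were taken as same-strand hairpins with at most 10 kb between neighbours, and 12 held at least 3 detected genes. The highest over the lowest detected mean CPM was 22.0 in miR-17-92 (Mir92-1 over Mir18), 14.7 in replicate 1 and 32.6 in replicate 2, and its place by the mean was 10 of the 12. In miR-106a-363 it was 92.9 (Mir92-2 over Mir363), place 7, but 58.1 in replicate 1 and 144 in replicate 2. With at most 3 kb between neighbours there were 13 clusters, and both ratios of means were the same, at places 10 and 5. The Mcm7 trio stood at 8.12, with 7.66 and 8.69 in the libraries. Clusters hold different numbers of genes, and genes under 10 counts, such as Mir19a and Mir19b-1, are left out, so these places are a description. Reads mapped to several places are outside these counts, and in both member clusters the highest gene is a Mir92 gene of uncertain level. Mature sequences repeated in the other clusters were not examined. The ratios in each library were added after seeing the data.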
